A study of Mus musculus with 7 samples.

Results

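C4b, C2 and C1ra are the 3 genes of the classical complement pathway described here. They were chosen by gene symbol and are 3 of the 13587 genes listed in at least 1 of the 6 deposited tables. All 6 tables list all 3 of them. The classical pathway is a cascade of serum proteins. C1q bound to a surface activates the proteases C1r and C1s, and C1s then cleaves C4 and C2, whose fragments join into the enzyme that splits C3. Liver makes most circulating complement, but many other cells transcribe these genes, and interferon gamma (IFNγ) is a known inducer of C4, C2 and C1r in several cell types.

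PolyA RNA was sequenced from B16, a mouse melanoma line of C57Bl/6 origin, used as a clonal, stable line, so that every group derives from 1 clone. Detached cells were kept for 5 h with 10 nM recombinant mouse IFNγ or, as the mock group, with medium alone, then washed and seeded at 35000 cells per well in duplicate wells. RNA was taken at labelled times of 0 h (T0), 23.5 h, 48 h and 91 h, which gives 7 groups: T0, and IFNγ and mock at each later time. The study asks whether a passing exposure to the cytokine leaves a lasting response. Whether T0 cells had been through a pulse, and the moment from which the hours run, are not stated in the labels.

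Each deposited value is the authors' mean over 2 libraries, and the reads of both libraries were recovered from it. Levels are in normalised reads, meaning reads divided by a size factor and put on 1 scale through T0, because IFNγ and mock stand in separately normalised tables. Each group thus has n = 2 libraries, with 12894823 to 24459426 reads in the recovered genes. Entries that name no gene are not in these sums, so they are not whole library sizes. The labels do not call them separate cultures. A p-value here therefore reflects no more than how far libraries of 1 group lay apart, which may be technical. In the IFNγ group at 48 h the libraries stood apart. Among genes with a level of at least 1000, the SD of their log2 ratio was 0.43, and 127 of 4899 genes differed at least 2-fold. In the other 6 groups that SD was between 0.067 and 0.15, with 0 such genes. All 7 melanocyte markers were listed, at a summed level of 368325 to 549416. Of other cell types, 2 of 9 myeloid markers (summed level 27.5 to 97.1), 1 of 6 T cell markers (25.5 to 142.9), 4 of 6 fibroblast markers (262.0 to 489.8) and 0 of 4 hepatocyte markers were listed. A gene that a table does not list had a mean below 15 in both of its groups.

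C4b encodes complement component C4, the first substrate of C1s. It lies on chromosome 17 (GRCm38, chr17:34728380-34743882, minus strand, GENCODE M21), in the class III region of the major histocompatibility complex. Its neighbour C4a is a close copy, with 96.1% of aligned coding bases identical, and 35.5% of the 50-base windows of the C4b coding sequence also occur in C4a. The 60 coding bases from position 2705 to 2764 of the C4b coding sequence hold 13 differences, written in capitals, and show where reads of the copies can be told apart:
C4b: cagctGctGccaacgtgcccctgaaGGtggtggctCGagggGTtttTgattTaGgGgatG
C4a: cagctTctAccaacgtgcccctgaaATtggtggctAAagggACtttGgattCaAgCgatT
C4a stayed between 6.48 and 18.8 normalised reads in all 7 groups. C4b was 1.11 times the C4a level at T0 and 109 times it with IFNγ at 23.5 h. How the counting treated reads that match both copies is not given in the sources used here, so the low values of either gene are uncertain.

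C1ra encodes the protease C1r, which activates C1s. It lies on chromosome 6 (chr6:124512405-124523443, plus strand) and has a copy, C1rb, with 98.0% of aligned coding bases identical. C1rb is not listed in any table. Of the 50-base windows of the C1ra coding sequence, 63.7% also occur in another gene, mostly C1rb. The window from position 1798 to 1857 of the coding sequence holds 11 differences between the copies, in capitals:
C1ra: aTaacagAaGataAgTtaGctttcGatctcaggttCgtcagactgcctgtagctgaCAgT
C1rb: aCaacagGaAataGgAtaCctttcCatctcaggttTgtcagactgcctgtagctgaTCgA

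C2 encodes complement component C2, the protease part of the enzyme that splits C3. It lies on chromosome 17 (chr17:34862604-34898265, minus strand). Annotated genes overlap 46.9% of its exon bases: Gm20547 on the same strand shares 1656 bases and Zbtb12 on the opposite strand 161. Gm20547 and Cfb, the factor B gene beside it, are not listed. Other annotated genes overlap 79.5% of the Cfb exon bases, so being unlisted cannot be read as absence of its RNA. Whether reads in the shared bases were counted is not given in the sources used here.

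At 23.5 h all 3 genes were higher in IFNγ-pulsed than in mock-pulsed cells. C4b stood at 1084 and 1176 normalised reads in the IFNγ libraries and at 28.4 and 22.5 in the mock libraries, so its group mean was 44.3 times the mock mean. C2 stood at 2229 and 2418 with IFNγ and at 1010 and 1009 in mock, a 2.30-fold difference of means. C1ra stood at 925 and 869 with IFNγ and at 281 and 255 in mock, a 3.35-fold difference. The groups did not overlap for any of the 3 genes. In limma, the log2 difference was 5.42 ± 0.13 (SE) for C4b (adjusted p = 2.98e-11), 1.201 ± 0.053 for C2 (adjusted p = 1.16e-08) and 1.74 ± 0.08 for C1ra (adjusted p = 1.16e-08). All 3 members were called higher, against 8.56% of the 12451 genes tested, while 6.06% were called lower (1066 higher and 755 lower). With library totals made equal, that split was 919 higher and 983 lower. By size of the log2 difference, C4b ranked 6 among all genes tested, C1ra 89 and C2 123. Fewer cells with the RNA and less RNA per cell cannot be told apart in such bulk samples. Of the markers of other cell types, Lck, a T cell kinase gene, was also higher with IFNγ (63.1 against 35.1 normalised reads, log2 difference 0.81 ± 0.22, limma, adjusted p = 0.0270) and Pdgfrb, a fibroblast marker, was lower (-0.40 ± 0.12, adjusted p = 0.0372). The other 5 T cell markers, among them the CD3 chain genes, were not listed. The part of such cells in the result was not tested.

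**Figure D1:**
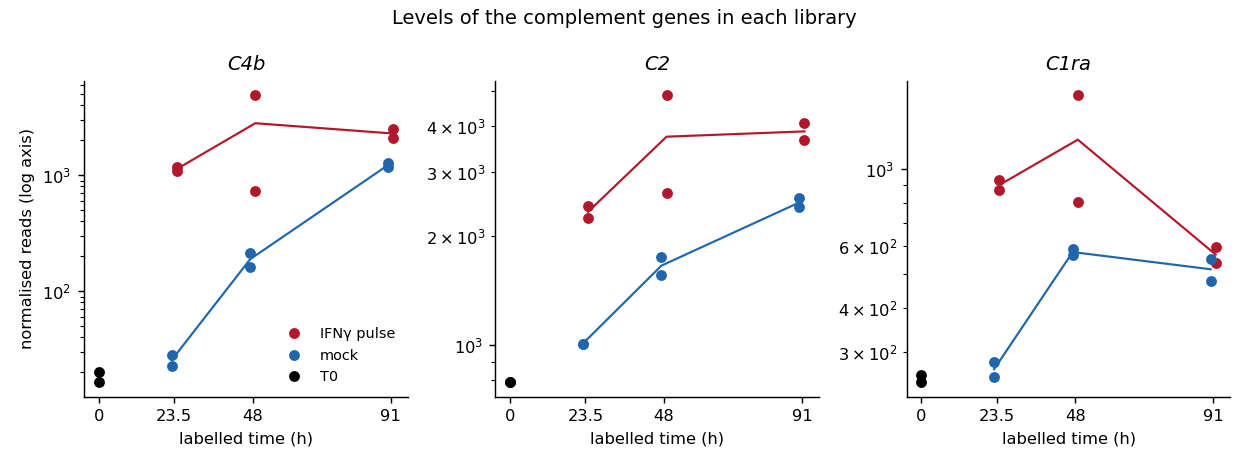
Levels of C4b, C2 and C1ra in normalised reads (log axis) against labelled time in hours. Points are single libraries and lines join group means. The IFNγ libraries at 48 h lie far apart. Mock levels of C4b and C2 climb toward the IFNγ levels by 91 h, while mean C1ra falls in both arms from 48 h to 91 h.

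The mock cells themselves did not stay at the starting level. C4b went from 20.03 and 16.4 normalised reads at T0 to 28.4 and 22.5 in mock at 23.5 h, then to 215 and 163 at 48 h and to 1183 and 1263 at 91 h. Each step lay above the last without overlap. Against T0, the log2 difference in limma was 0.46 ± 0.31 at 23.5 h (adjusted p = 0.348), 3.30 ± 0.21 at 48 h (adjusted p = 6.49e-07) and 6.00 ± 0.14 at 91 h (adjusted p = 5.31e-13). The mean of unpulsed C4b at 91 h (1223) thus lay above that of pulsed C4b at 23.5 h (1130). The nearest libraries of these groups almost met (1183 and 1176), and the groups were not tested against each other.

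C2 took the same order in mock, from 789 and 793 at T0 to 1010 and 1009, to 1744 and 1563, and to 2393 and 2540 at 91 h. The log2 difference from T0 was 0.35 ± 0.06 at 23.5 h (limma, adjusted p = 0.00125), 1.06 ± 0.08 at 48 h (adjusted p = 1.34e-06) and 1.64 ± 0.05 at 91 h (adjusted p = 1.01e-11). The call at 23.5 h was lost without a variance trend (adjusted p = 0.0844) and in 1 fit over all groups (adjusted p = 0.531). C1ra in mock stood at 281 and 255 at 23.5 h, overlapping the 246 and 259 of T0. It then stood at 591 and 566 at 48 h and at 480 and 553 at 91 h. Its log2 difference from T0 was 0.09 ± 0.10 (limma, adjusted p = 0.602), 1.19 ± 0.09 (adjusted p = 2.32e-06) and 1.03 ± 0.10 (adjusted p = 5.30e-07) at the 3 times. Called higher in mock over T0 were 1 of 3 members at 23.5 h, against 8.32% of all genes tested, and 3 of 3 at 48 h and at 91 h, against 32% and 37.2%. The IFNγ groups share the same T0 libraries. There all 3 members were called higher at every time, against 20%, 13.5% and 38.1% of all genes, with log2 differences of 5.88, 6.63 and 6.90 for C4b, 1.55, 2.17 and 2.29 for C2, and 1.83, 2.17 and 1.17 for C1ra. Some markers of other cell types were also higher in mock than at T0. Lck stood at 25.5 normalised reads at T0, at 120.4 in mock at 48 h (log2 difference 2.21, limma, adjusted p = 8.79e-06) and at 130.02 at 91 h (2.31, adjusted p = 9.12e-07). Pdgfra (0.88, adjusted p = 4.57e-04) and the myeloid gene Lyz2 (1.56, adjusted p = 0.00215) were higher at 48 h, and Cd68, a macrophage gene, at 91 h (0.91, adjusted p = 0.0267). Of 4 tested fibroblast markers, 1 (Pdgfra) was higher and 2 lower in mock at 48 h, against 32% and 31.4% of all genes tested. At 91 h, 0 were higher and 3 lower, against 37.2% and 37.1%. The part of such cells in the mock levels was not tested.

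At 48 h the difference between IFNγ and mock rested on 2 IFNγ libraries that did not match each other. C4b read 738 in one and 4872 in the other, 6.60 times as much, against 215 and 163 in mock. C2 read 2622 and 4857, against 1744 and 1563 in mock, and C1ra read 801 and 1617, against 591 and 566. For each gene both IFNγ libraries lay above both mock libraries. In limma the log2 difference was 3.33 for C4b (95% interval 1.16 to 5.51, adjusted p = 0.548), 1.11 for C2 (0.35 to 1.87, adjusted p = 0.553) and 0.98 for C1ra (0.13 to 1.82, adjusted p = 0.664). None of the 3 was called, as limma called 0% of the 12654 genes tested in either direction at this time, although 849 had an unadjusted p under 0.05. With 1 spread estimated over all groups, all 3 passed in limma (adjusted p = 0.0111, 0.0117 and 0.0373). In that setting 3.38% of all genes tested were called higher. Without IFNγ library 1 the log2 differences of C4b, C2 and C1ra were 4.69, 1.56 and 1.48. Without IFNγ library 2 they were 1.97, 0.67 and 0.47.

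By 91 h the differences were smaller. C4b stood at 2484 and 2087 normalised reads with IFNγ and at 1183 and 1263 in mock, 1.87 times by the means. C2 stood at 4077 and 3657 with IFNγ and at 2393 and 2540 in mock, 1.57 times. C1ra stood at 598 and 540 with IFNγ and at 480 and 553 in mock, and there the groups overlapped. In limma, C4b was higher by a log2 difference of 0.90 ± 0.07 (adjusted p = 6.88e-07) and C2 by 0.65 ± 0.06 (adjusted p = 1.96e-06). C1ra gave 0.14 ± 0.09 (95% interval -0.05 to 0.33, adjusted p = 0.321). Called higher were 2 of 3 members, against 8.75% of the 12435 genes tested, while 7.53% were called lower. Both calls depended on the estimate of the spread. Without a variance trend C4b gave an adjusted p of 0.0577 and C2 of 0.0614, and in 1 fit over all groups they gave 0.505 and 0.152. Of the markers of other cell types, Cd68 was also higher with IFNγ at 91 h (97.1 against 35.0 normalised reads, adjusted p = 9.91e-04), whereas Ptprc and the 3 C1q chain genes were not listed. The part of such cells in the result was not tested.

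**Figure D2:**
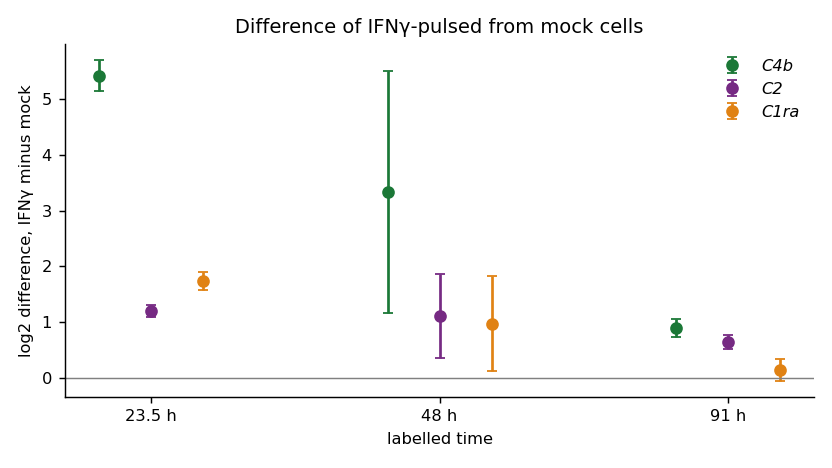
Log2 difference of IFNγ-pulsed from mock cells by limma, with 95% confidence intervals from 2 libraries per group, at 3 labelled times. C4b falls from 5.42 at 23.5 h to 0.90 at 91 h, and the intervals at 48 h are wide.

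The change of the IFNγ effect between times was tested as an interaction over 8 libraries. From 23.5 h to 91 h the log2 effect changed by -4.53 ± 0.15 for C4b (limma, adjusted p = 1.29e-10), by -0.55 ± 0.08 for C2 (adjusted p = 8.00e-04) and by -1.60 ± 0.13 for C1ra (adjusted p = 1.25e-06). All 3 members were called as lower effects, against 5.34% of the 12525 genes tested. The C2 call was lost without a variance trend (adjusted p = 0.0566) and in 1 fit over all groups (adjusted p = 0.563). The changes from 23.5 h to 48 h and from 48 h to 91 h were not called for any member (0 of 3), where 0.302% and 0% of all genes had a lower effect. Without IFNγ library 2 at 48 h the changes over the earlier interval were -3.45, -0.53 and -1.27 for C4b, C2 and C1ra. Over the later interval they were -3.80, -0.91 and -1.34 without IFNγ library 1. The C4b change over that interval was -1.08 without library 2.

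From 23.5 h to 91 h C4b rose in both arms, by a log2 difference of 1.01 ± 0.07 in pulsed cells (limma, adjusted p = 1.89e-08) and of 5.54 ± 0.14 in mock cells (adjusted p = 1.78e-11). C2 rose by 0.73 ± 0.06 in pulsed cells (adjusted p = 4.20e-08) and by 1.29 ± 0.06 in mock cells (adjusted p = 2.42e-09). C1ra fell by 0.66 ± 0.07 in pulsed cells (adjusted p = 1.40e-06) and rose by 0.94 ± 0.10 in mock cells (adjusted p = 5.86e-06). Over this interval 2 of 3 members were called higher in pulsed cells, against 35.2% of all genes, and 1 lower, against 36.8%. In mock cells 3 of 3 were called higher, against 34.6%. For C4b in pulsed cells the call was lost in 1 fit over all groups (adjusted p = 0.166).

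Ordered over the 7 groups by mean level, C4b and C2 ran alike from T0 through mock at 23.5 h, mock at 48 h and IFNγ at 23.5 h to mock at 91 h. The IFNγ groups at 48 h and 91 h had the highest means for both. For C4b the place of IFNγ at 48 h rested on library 2 (4872), since library 1 (738) lay below both libraries of mock at 91 h and of IFNγ at 23.5 h. Between the other groups next to each other in the C4b order the libraries did not overlap. Those of IFNγ at 23.5 h and mock at 91 h almost met (1176 and 1183). For C2 they overlapped between IFNγ at 48 h and 91 h and between IFNγ at 23.5 h and mock at 91 h. C1ra was ordered differently, with mock at 91 h, IFNγ at 91 h and mock at 48 h next to each other (517, 569 and 578 normalised reads) and overlapping, and with IFNγ at 23.5 h and at 48 h on top, which also overlapped. Across the 7 group means of log2(level + 1), Pearson's r was 0.98 between C4b and C2, 0.87 between C4b and C1ra and 0.84 between C2 and C1ra, as a description of groups that share a scale.

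Per kilobase of exon, C2 was the most abundant of the 3 genes in every group. At T0 the level was 204 normalised reads per kb for C2, 84.6 for C1ra and 3.20 for C4b. With IFNγ at 23.5 h it was 600.1 for C2, 301 for C1ra and 198 for C4b. In mock at 91 h, C4b at 215 per kb had passed C1ra at 173. C4b per kb was 0.0156 of C2 at T0, 0.331 of it with IFNγ at 23.5 h and 0.337 of it in mock at 91 h. These values divide by all exon bases, including sequence shared with other genes. Over exon bases free of other genes, C2 at T0 would be 385 per kb. If reads in shared sequence were not counted, each gene would read too low by a different amount. The order of C4b and C1ra in mock at 91 h is therefore uncertain.

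Among the genes whose course over the 7 groups was most like each member, of 4133 compared, C4b had Tmem140 (Pearson's r 0.989), B2m (0.987), Apol9a (0.985), Apol9b (0.983) and C2 (0.983). B2m, the light chain of class I histocompatibility molecules, went from 3815 normalised reads at T0 to 23646 in mock and 58749 with IFNγ at 91 h. C2 had Gm9845 (0.994), Arhgef37 (0.993), Cyp4v3 (0.991), Itm2b (0.988) and B2m (0.988). C1ra had Socs1 (0.996), Parp11 (0.987), Casp12 (0.981), Tapbp (0.979) and Tmem106a (0.976). Socs1, which inhibits the kinases of the IFNγ receptor, stood at 20.5 at T0, at 78.4 with IFNγ and 23.6 in mock at 23.5 h, and at 50.2 and 44.0 at 91 h.

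Of 57 complement genes, 19 were listed in any table, and 15 of these could be tested at 23.5 h, which needs a value in both groups and a level of at least 20 in one of them. Of the other 4, C4a was below that level, and Serping1, C3 and Fcna had no value in mock at 23.5 h. Called higher with IFNγ were 5 of these 15 at 23.5 h, against 8.56% of all genes tested, and 3 at 91 h, against 8.75%. Called lower were 0 at 23.5 h, against 6.06%, and 3 at 91 h, against 7.53%. Their median log2 difference was 0.09 at 23.5 h and 0.14 at 91 h, against 0.00 for all genes at either time. At 48 h no gene of the list was called by limma (0 of 15), where 0% of all genes were. In 1 fit over all groups 3 were higher at 48 h, against 3.38% of all genes tested. The counts at each time changed when some single libraries were left out, as did the number of all genes called. The 3 higher at 91 h were the members C4b and C2 and the gene C1rl. In mock over T0 at 23.5 h, 1 of 15 was called higher and 2 lower, against 8.32% and 6.34% of all genes. At 48 h 11 of 16 were higher in mock and 2 lower, against 32% and 31.4%. At 91 h 10 of 15 were higher in mock and 2 lower, against 37.2% and 37.1%. Since the members were chosen with earlier results known, these counts are no test of the list. All 5 that were higher with IFNγ than in mock at 23.5 h belong to the classical pathway, and 3 of them are the members described above.

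**Figure D3:**
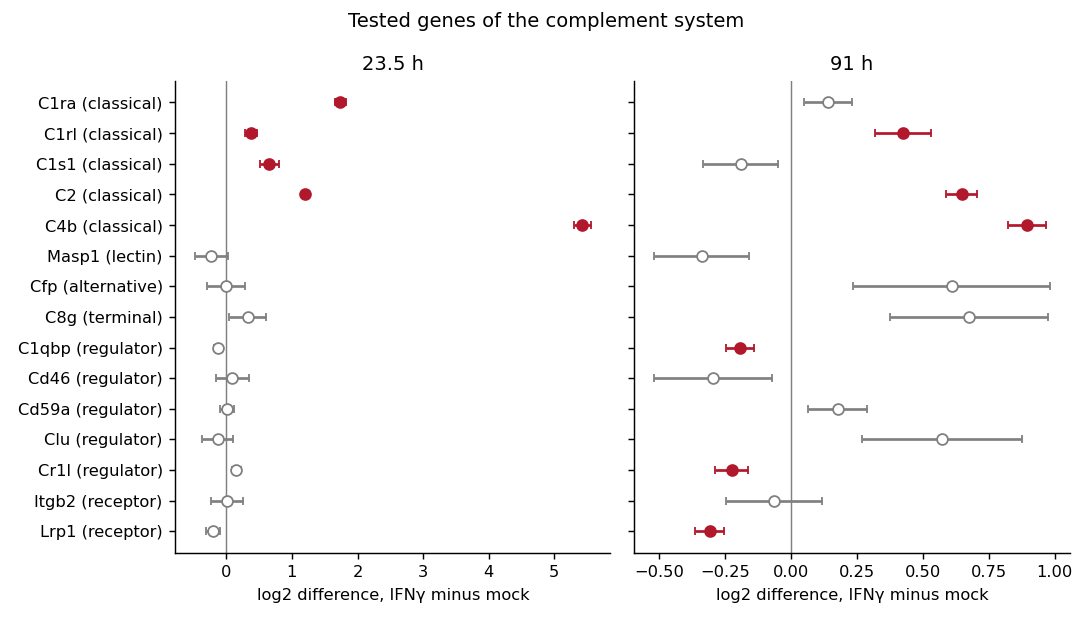
Log2 difference of IFNγ-pulsed from mock cells for the 15 tested complement genes at 23.5 h and 91 h, with SE from limma. Filled red points passed at an adjusted p under 0.05; the axes of the panels differ in range.

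The others were C1s1 and C1rl. C1s1 encodes C1s, the protease that C1r activates. It stood at 166 and 133 normalised reads with IFNγ and at 97.6 and 90.2 in mock at 23.5 h (log2 difference 0.66 ± 0.15, limma, adjusted p = 0.0108), while T0 stood at 151 and 153. Pulsed C1s1 thus lay around the T0 level and mock C1s1 below it. C1rl, a protease gene similar to C1r, stood at 288 and 287 with IFNγ and at 227 and 216 in mock (0.37 ± 0.09, limma, adjusted p = 0.0183). At 91 h C1rl was still called (0.43 ± 0.11, adjusted p = 0.0127) and C1s1 was not (-0.19 ± 0.14, adjusted p = 0.396). The count of 5 became 3 without a variance trend and in 1 fit over all groups, where 2.38% and 1.97% of all genes were higher. It also fell when IFNγ library 1 was left out. The counts at 91 h became 0 and 0 without a variance trend and in 1 fit over all groups. There 0.571% and 0.649% of all genes were higher, and 0.290% and 0.526% lower. C1ra per kb was 1.74 times C1s1 at T0, 6.30 times with IFNγ and 3.00 times in mock at 23.5 h, and 3.14 and 2.52 times at 91 h. Sequence shared with other genes limits these ratios as well.

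Of the genes downstream of the members, C3 was listed at 48 h alone, at 24.1 normalised reads with IFNγ and 25.6 in mock against 3.09 at T0. C8g, a subunit of the membrane attack complex, was the only listed gene of the terminal pathway, at 15.8 to 55.2 over the groups. Masp1, a protease of the lectin pathway, gave -0.23 ± 0.25 (limma, adjusted p = 0.604) and properdin (Cfp) gave 0.00 ± 0.29 (adjusted p = 1.00) at 23.5 h. Fcna, a lectin pathway gene, was listed for mock at 48 h alone, at 16.8. The 3 C1q chain genes were not listed.

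At 23.5 h, 0 of 5 tested regulators and 0 of 2 tested receptors were called, where 8.56% of all genes were higher and 6.06% lower, and a count of 0 among 7 genes lies near that share. At 91 h, Cr1l, the rodent inhibitor of the C3-splitting enzymes, was lower with IFNγ (968 against 1132 normalised reads, log2 difference -0.23 ± 0.06, limma, adjusted p = 0.0196). C1qbp, a C1q-binding protein, was also lower (-0.19 ± 0.05, adjusted p = 0.0217), as was Lrp1, an endocytic receptor (-0.31 ± 0.06, adjusted p = 0.00145). Cr1l (540 at T0) and Lrp1 (1217 at T0, 2589 with IFNγ and 3203 in mock) lay above T0 in both arms at 91 h. C1qbp stood at 3408 at T0, 3128 with IFNγ and 3575 in mock. Cd59a, Cd46, Clu and Itgb2 were not called at either time, with log2 differences between -0.30 and 0.57. Serping1, the C1 inhibitor that inactivates C1r and C1s, was listed only for IFNγ, at 37.8 and 37.0 normalised reads at 23.5 h and at 5.98 and 125 at 48 h, against 0.546 at T0. The library of 48 h with more Serping1 was also the one with more C4b, C2 and C1ra.

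Genes of the IFNγ receptor and its signalling were measured as well. Ifngr1 and Ifngr2, the receptor chains, and Jak1 were not called between IFNγ and mock at 23.5 h, with log2 differences of -0.04, -0.12 and 0.03. Jak2 was (0.19 ± 0.05, limma, adjusted p = 0.0243). The transcription factor gene Irf1 was higher at 23.5 h (2.46 ± 0.06, limma, adjusted p = 4.60e-11). It also rose in mock cells by 48 h, from 499 normalised reads at T0 to 1473 (log2 difference 1.56, limma, adjusted p = 2.69e-07). At 91 h Irf1 was at 567 in mock and at 920 with IFNγ. In mock, Jak2 rose from 1050 at T0 to 1974 at 91 h (log2 difference 0.91, limma, adjusted p = 1.99e-09). Ifngr2 (0.35), Jak1 (0.21) and Irf1 (0.18) were also called higher in mock at 91 h than at T0, where 37.2% of all genes were. Ifngr1 was not called at 91 h (-0.03). At 48 h, Ifngr1 (0.29), Ifngr2 (0.57), Jak1 (0.37) and Jak2 (0.48) were called higher in mock than at T0, where 32% of all genes were. The part of these genes in the mock levels of the members was not tested.

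Of 19 listed genes within 100 kb of a member, 17 were tested at 23.5 h. Called higher were 4 of these, against 8.56% of all genes tested, and called lower were 0, against 6.06%. Their median log2 difference was 0.06, against 0.00 for all genes tested. Those called higher were C1s1 and C1rl on chromosome 6 and Neu1 (0.22 ± 0.06, limma, adjusted p = 0.0276) and Hspa1b (0.62 ± 0.17, adjusted p = 0.0307) near C2. C1rl lies 1.76 kb upstream of C1ra, and C1s1 lies 6.90 kb downstream on the opposite strand. Ehmt2, a histone methyltransferase gene 0.204 kb upstream of C2, gave -0.01 ± 0.04, and Zbtb12, which overlaps C2, gave -0.12 ± 0.07. Of the 6 tested neighbours of C4b none was called (0 of 6), with log2 differences of -0.04 to 0.32. Among so few genes, a count of 0 lies near the shares of all genes. The count of 4 became 0 without a variance trend and in 1 fit over all groups, where 2.38% and 1.97% of all genes were higher. It also fell when either IFNγ library or mock library 2 was left out.

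**Figure D4:**
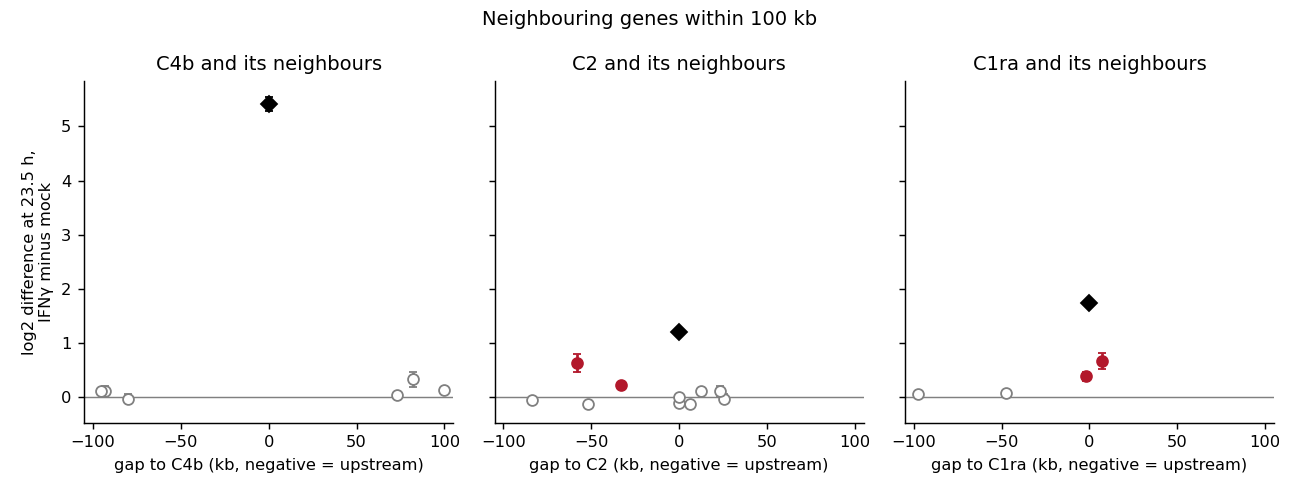
Log2 difference at 23.5 h of C4b, C2 and C1ra (black diamonds) and of listed genes within 100 kb against the gap between the genes in kb, negative values upstream, with SE from limma. Filled red points passed at an adjusted p under 0.05. The 6 tested genes around C4b lie between -0.04 and 0.32, and none passed.

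A promoter was found in the RefSeq table (GRCm38.p6) for 1 of the 3 members, C1ra. Its 300 bases (chr6:124512371-124512670, plus strand) hold 1 match to the gamma-activated site TTCNNNGAA, starting 32 bases downstream of the RefSeq start. The match is in capitals, beside the C1rb promoter (chr6:124570180-124570479, plus strand), which holds the same letters from position -119 relative to its start:
C1ra promoter: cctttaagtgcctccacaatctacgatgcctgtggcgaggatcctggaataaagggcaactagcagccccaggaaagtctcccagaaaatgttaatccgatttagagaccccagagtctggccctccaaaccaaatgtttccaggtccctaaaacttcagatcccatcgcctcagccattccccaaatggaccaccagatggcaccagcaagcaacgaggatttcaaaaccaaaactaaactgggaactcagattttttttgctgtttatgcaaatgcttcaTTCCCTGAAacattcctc
C1rb promoter: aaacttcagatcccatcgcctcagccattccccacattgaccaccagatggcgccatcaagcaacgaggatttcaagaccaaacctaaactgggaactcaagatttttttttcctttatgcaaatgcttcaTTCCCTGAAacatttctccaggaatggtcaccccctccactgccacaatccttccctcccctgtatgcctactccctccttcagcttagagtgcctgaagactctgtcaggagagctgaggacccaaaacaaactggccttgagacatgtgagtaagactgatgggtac
On both strands, TTCNNNGAA occurs in 8.30% of all 32851 promoters, the interferon-stimulated core, GAAA then NN then GAAA, in 3.44% and the TATA box letters TATAAA in 13.6%. Of 12 listed complement genes with a promoter, 2 hold the first, 2 the second and 1 the third. GENCODE M21 starts C1ra at chr6:124512405 and C1rb at chr6:124570294, so both matches shown lie inside the GENCODE genes. Their positions thus depend on the annotation used. A match is a description of these letters and not a measured binding site.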

How the data were processed

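The submitters' processing notes name STAR 2.5.0a, Picard 1.124, HTSeq 0.5.3 and DESeq, with builds mm10 and GRCm38. Strand setting, annotation and treatment of multiply matching reads were not stated. Per the file headers, each of the 6 deposited tables gives, for each gene, a mean signal the authors made for T0 and for 1 other group, their log2 ratio and their p-value and adjusted p-value. The authors' log2 and p-value columns were not used in any comparison. In 5 tables, 4 entries name no gene and make up 57.1% to 70.3% of a column; they were left out. No value column was left unused (0).

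Each mean equals whole reads of 2 libraries times a step per library, so the reads of both libraries were solved by testing every whole-number pair, within 1.2 times the rounding error of the 10 printed digits. A log2 window of 2 between the libraries was used only where several pairs passed. This rule, and the refinement of the steps, were changed after C4b with IFNγ at 48 h had given no pair under a stricter window. Of 157036 values, 156447 gave 1 pair, 32 none and 557 several. T0 reads were solved separately in each table and were identical for 13297 of 13297 genes. For the 36 means of the members, the best pair lay within 0.977 rounding errors of the printed mean and the next at least 28.2 away. Library numbers only name a library.

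limma 3.58.1 (R 4.3.3), with a variance trend, was run on log2(normalised reads + 1), using only the groups compared, over genes with a value in every group compared and a level of at least 20 in one of them, two-sided, with Benjamini-Hochberg adjustment over all genes tested. The pseudocount understates changes of low genes. SDs, SEs and n refer to the 2 recovered libraries per group. Alternatives were a pseudocount of 5, no filter or a level of at least 100, equal totals, median-of-ratios factors, no variance trend, 1 fit over all groups, and leaving out each library, where the lone library left in a group is assumed to vary like the other groups. Both steps were tested on simulated data. Annotation was GENCODE M21, and promoters came from RefSeq (GRCm38.p6). Other software was Python 3.11.15, numpy 2.4.6, pandas 2.3.3 and matplotlib 3.10.9.

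The members and lists were chosen with earlier results of these data known. Named are the members, every listed gene of the complement list, their neighbours within 100 kb, the copies C4a and C1rb, the 5 genes most like each member in course (listed in all 6 tables, level of at least 20 in some group, range of at least 1 log2 unit), and genes of IFNγ signalling, of which 1 is not reported here. Cd68, Ptprc, Lck, Lyz2, Pdgfra and Pdgfrb come from the marker lists, and were named after their values were seen.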

Additional observations from a re-analysis of the deposited data

Results flagged for a closer look

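For all 3 genes the effect of the IFNγ pulse differed between 23.5 h and 91 h in the interaction test of limma. The change of the log2 effect was -4.53 for C4b (adjusted p = 1.29e-10), -1.60 for C1ra (adjusted p = 1.25e-06) and -0.55 for C2 (adjusted p = 8.00e-04). Both IFNγ libraries lay above both mock libraries at 23.5 h for each gene, and at 91 h for C4b and C2.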

How the results depend on the processing

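Of 497 values of the members under the alternatives, over 42 comparisons, 472 kept their direction and their side of the threshold. No variance trend and 1 fit over all groups left the estimate as it was and ended these calls: C4b (0.90) and C2 (0.65) at 91 h, C2 in mock at 23.5 h against T0 (0.35), the C2 change from 23.5 h to 91 h (-0.55), and, in 1 fit alone, C4b in pulsed cells from 23.5 h to 91 h (1.01). At 48 h, 1 fit over all groups made calls of 3.33, 1.11 and 0.98 for C4b, C2 and C1ra, where 3.38% of all genes were higher. Leaving out single libraries, the log2 difference at 48 h ran from 1.97 to 4.69 for C4b, 0.67 to 1.56 for C2 and 0.47 to 1.48 for C1ra. The change from 23.5 h to 48 h ran from -3.45 to -0.73, -0.53 to 0.36 and -1.27 to -0.26. The C2 change turned to 0.36 without IFNγ library 1 at 48 h. The change from 48 h to 91 h ran from -3.80 to -1.08, -0.91 to -0.020 and -1.34 to -0.33. The cause of these shifts was not tested.

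The list counts under the alternatives were added after seeing the data. Complement genes called higher at 23.5 h were 3, and neighbours 0, with no variance trend and in 1 fit. At 48 h, 1 fit gave 3 complement genes higher, 2 neighbours higher and 1 lower. At 91 h both settings gave 0 complement genes higher and 0 lower, with neighbours at 1 and 0. Without single libraries, complement genes higher ran from 3 to 5 at 23.5 h and 0 to 5 at 48 h. Those lower ran from 0 to 1, 0 to 2 and 1 to 2 at the 3 times, and the lower count at 91 h was 1 without IFNγ library 2. Neighbours higher ran from 1 to 3, 0 to 6 and 2 to 4, and lower from 0 to 1 at 48 h. No paired analysis was possible because the labels give the groups no shared replicate numbers. With 2 libraries per group, and with IFNγ at 48 h spread most widely, precision rests on the variance shared across genes.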
